A study of Mus musculus with 41 samples.

Results

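The contractile genes of smooth muscle were examined across CUT&Tag peak lists of 4 histone modifications in 8 mouse cell types. The set comprised 8 of 21728 protein-coding genes on chromosomes 1 to 19 and X: Mylk, Acta2, Tagln, Myh11, Cnn1, Lmod1, Smtn and Myocd. They were chosen by name, because Mylk holds one of the strongest H3K18la peaks of adipocytes, so the strength of that peak is given as a description. In CUT&Tag an antibody against a histone modification directs a transposase, which cuts and tags the DNA beside it. The modifications were H3K18la, the lactylation of lysine 18 on histone H3, H3K27ac, found at active promoters and enhancers, H3K4me3, found at active promoters, and H3K27me3, the Polycomb mark of repressed genes.

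Together 41 samples formed 24 pairs of cell type and mark, and the replicates of each pair were pooled into 1 peak list. In 17 lists 2 samples were pooled and 7 lists came from 1 sample. mESC-ser and mESC-2i are embryonic stem cells of the single line E14, grown in serum-lif and in 2i-lif. MB are primary myoblasts and MT the myotubes differentiated from them, both from C57BL/6 mice. GAS is whole gastrocnemius muscle of adult female C57BL/6 mice. ADIPO are nuclei of white epididymal adipocytes, taken from female AdipoCre-NuTRAP mice, in which a Cre driven by an adipocyte promoter tags the nuclei so that streptavidin beads can collect them. BMDM are macrophages cultured from C57BL/6 bone marrow, and PIM are post-ischemia macrophages sorted from C57BL/6 muscle after its blood supply was cut. No group carried a further treatment or deletion. H3K18la was listed in all 8 cell types, H3K27ac in 5, H3K4me3 in 4 and H3K27me3 in 7, and no H3K4me3 or H3K27me3 list of ADIPO was analysed here.

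Contraction of smooth muscle starts when calcium activates myosin light chain kinase, the product of Mylk, which phosphorylates myosin so that it pulls on actin. Acta2 encodes the actin and Myh11 the myosin heavy chain of these cells, Tagln (SM22) and Cnn1 (calponin) encode actin-binding proteins, Lmod1 an actin filament nucleator and Smtn a protein of the contractile filaments. Myocd encodes myocardin, the co-activator that drives these genes together with serum response factor, which binds the CArG box. Besides the kinases, the Mylk locus is known to encode telokin, a short protein made from a start near its 3′ end.

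Pooling left no spread between replicates, so every value below describes 1 list and no test of a difference was possible. A promoter is 2000 bp on each side of any annotated transcription start site (GENCODE M21, build mm10), a neighbourhood is the gene with 10 kb on each side, and a gene was called where a peak overlapped it by at least 1 bp. Total signal, the fragment coverage summed over a peak, was not scaled for depth. Peaks are therefore given by their percentile of total signal within their own list, where 100 is the strongest. The lists held 11008 to 36823 peaks over 22.6 to 197 Mb, and a longer list gives more calls at any gene, so counts of members per list stand beside the percentage of all 21728 genes called in it.

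Markers of the labelled cell types were called for H3K18la as follows, in lists that called 11.1% (MB) to 44.7% (ADIPO) of all genes. All 6 stem cell markers were called in both stem cell lists, all 6 adipocyte markers in ADIPO and all 6 macrophage markers in BMDM and in PIM. Of 6 skeletal muscle markers, 5 were called in MT and 5 in GAS, but only Myod1 in MB. In GAS all 6 endothelial, 5 of 6 fibroblast and 3 of 6 mural cell markers (Cspg4, Pdgfrb and Abcc9) were also called, and a mark in few cells of a whole tissue cannot be told apart from a weak mark in many. In MT 3 of 6 mural cell (Cspg4, Pdgfrb and Notch3), 3 of 6 fibroblast and 3 of 6 macrophage markers were called. In ADIPO, 5 of 6 fibroblast markers were called, 1 of 6 mural cell markers (Cspg4), 1 of 6 skeletal muscle markers (Acta1) and 0 of 6 endothelial markers. Macrophage markers were called at 2 of 6 in both GAS and ADIPO. Adipocyte markers were called at 2 of 6 in GAS (Pparg and Fabp4), 2 of 6 in BMDM and 3 of 6 in PIM, with Adipoq in both macrophage lists, and endothelial markers at 2 of 6 (Pecam1 and Cdh5) in BMDM and in PIM. In the stem cell and MB lists at most 2 of 6 markers of any other cell type were called. The part of these other cells in the signal at the smooth muscle genes was not tested.

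Mylk, the kinase gene, lies on chr16:34745210-35002420, + strand, and spans 257 kb with 8 annotated starts. Of these only those 39.7 kb and 250 kb downstream of the first, Mylk-201 and Mylk-203, belong to protein-coding transcripts. In ADIPO a single H3K18la peak at chr16:34977015-35002627 covered the 3′ end of the gene over 25613 bp, from 232 to 257 kb. Its total signal of 2282113 ranked 30 of 28767 peaks, against a median of 51884. A further peak of 8192 bp, at percentile 97.8, followed directly past the end of Mylk and lay at a promoter of the antisense gene Gm21691, which also overlaps the end of the wide peak. These signals cannot be assigned to either gene. Another peak of 3384 bp lay at 213 to 216 kb, at percentile 93.8. The wide peak ranked 39 by width, 151 by maximum signal and 261 by signal per base, so its place rests on its width more than on its height.

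The other H3K18la lists marked other stretches of Mylk. GAS held 11 peaks over 47.1 kb, the strongest at 157 to 165 kb and at 175 to 183 kb, at percentiles 94.0 and 92.5. MT held 10 peaks over 37.1 kb, the first of which, at 36.1 to 41.0 kb, covered the Mylk-201 start at percentile 68.0. Neither list had an H3K18la peak in the last stretch, from 230 kb to 10 kb past the gene, which held 88.3% of the ADIPO called bases. Those bounds were set from the annotated starts after the peaks were seen. mESC-2i had 1 peak, at 190 to 194 kb, and mESC-ser, MB, BMDM and PIM had none. Between MT and GAS 12.7 kb were called in common, 34.2% of the MT bases and 26.9% of the GAS bases. ADIPO and GAS shared 4.46 kb, 11.7% of the ADIPO bases and 9.47% of the GAS bases.

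**Figure D1:**
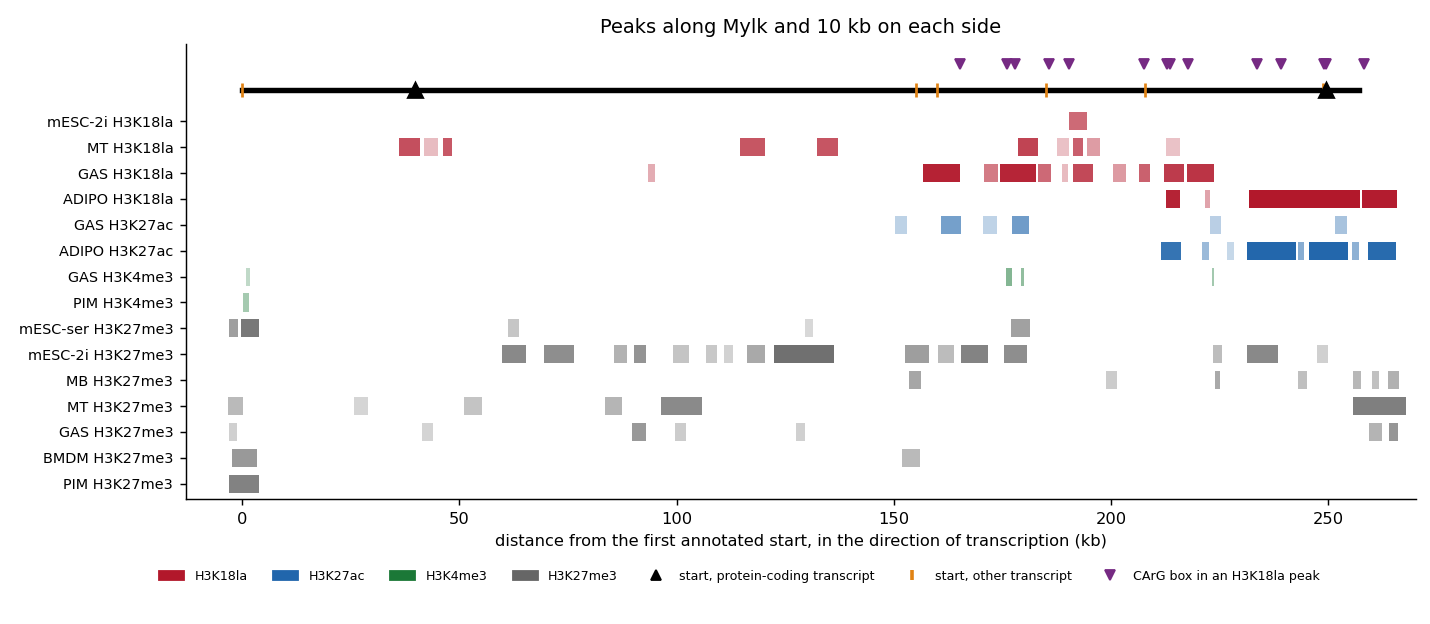
Peaks of every list with a peak within 10 kb of Mylk, 1 row per list, against the distance in kb from the first annotated start. Darker bars are at a higher percentile of total signal in their own list, black triangles and orange ticks mark transcript starts and purple triangles the CArG boxes. The ADIPO rows fill the 3′ end, where the only other H3K18la or H3K27ac peak is 1 of GAS.

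H3K27ac followed H3K18la along Mylk in ADIPO more than in GAS. The ADIPO H3K27ac list had 8 peaks there, 2 of them at percentile 99.1, and 87.9% of the wide H3K18la peak was also called for H3K27ac. Over the whole Mylk neighbourhood 87.1% of the ADIPO H3K18la bases were shared, against 26.2% in GAS, where the 6 H3K27ac peaks reached percentile 52.5 at most. In the ADIPO list as a whole 56.2% of the H3K18la bases were called for H3K27ac, and in GAS 63.2%. GAS H3K27ac covered only 19.8 kb of the neighbourhood, and 62.3% of these bases were called for H3K18la, against 39.5% in the list as a whole. In ADIPO 89.7% of the H3K27ac bases were called for H3K18la, against 79.1%. One of the 2 ADIPO H3K27ac replicates was shallower by the study's quality table, and its weight in the pooled list is unknown.

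A stretch of 3218 bp at chr16:34957950-34961167, 213 to 216 kb into Mylk, was the only one called for H3K18la in MT, GAS and ADIPO alike. It also overlapped the start of the antisense gene E130310I04Rik, and peaks carry no strand, so the signal cannot be assigned to either gene. It was at percentile 1.63 in MT, 79.4 in GAS and 93.8 in ADIPO. The stretch holds 2 exact CArG boxes, that is, CC, then 6 bases of A or T, then GG, and the reverse complement of a box is again a box, so both strands were covered. Both are shown because they lie in all 3 lists, with 30 bases on each side and the box in capitals, on the + strand of the mm10 genome.
Mylk 212.9 kb, chr16:34958081-34958150: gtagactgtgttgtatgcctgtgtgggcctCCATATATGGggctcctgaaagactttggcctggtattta
Mylk 213.6 kb, chr16:34958736-34958805: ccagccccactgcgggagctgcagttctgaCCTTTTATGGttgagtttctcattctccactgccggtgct

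The wide ADIPO peak held 4 exact CArG boxes. They are shown because they lie in the stretch called for H3K18la in ADIPO and in no other H3K18la list. The last one overlaps the annotated Mylk-203 start, and its sequence ends with the box.
Mylk 233.6 kb, chr16:34978796-34978865: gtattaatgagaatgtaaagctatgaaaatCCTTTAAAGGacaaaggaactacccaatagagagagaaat
Mylk 239.2 kb, chr16:34984412-34984481: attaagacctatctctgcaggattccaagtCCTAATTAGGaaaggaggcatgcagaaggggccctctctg
Mylk 249.2 kb, chr16:34994367-34994436: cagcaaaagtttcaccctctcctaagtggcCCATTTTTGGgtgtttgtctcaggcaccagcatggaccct
Mylk 249.6 kb, chr16:34994769-34994808: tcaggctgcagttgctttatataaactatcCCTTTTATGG

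The GAS peaks held other boxes. Those of the 2 strongest GAS peaks and of the peak at the Mylk-204 start are represented by 3 of them.
Mylk 165.3 kb, chr16:34910440-34910509: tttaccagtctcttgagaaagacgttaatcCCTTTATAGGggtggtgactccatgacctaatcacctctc
Mylk 176.1 kb, chr16:34921317-34921386: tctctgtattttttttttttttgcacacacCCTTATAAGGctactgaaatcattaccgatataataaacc
Mylk 185.8 kb, chr16:34931003-34931072: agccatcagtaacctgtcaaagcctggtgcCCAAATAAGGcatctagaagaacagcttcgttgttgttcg

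In all, the Mylk H3K18la peaks held 14 different boxes, 2 of them in 3 cell types and the other 12 in 1. The 4 ADIPO peaks held 7, of which 1 lay in the peak past the end of the gene, or 1.83 per 10 kb, against 0.513 per 10 kb in all ADIPO H3K18la peaks and 0.613 in the genome. The 11 GAS peaks held 8, or 1.70 per 10 kb, against 0.509 in all GAS peaks, and the 10 MT peaks held 2, or 0.540 against 0.527. The 1 mESC-2i peak held 1 box, or 2.47 per 10 kb, against 0.513. Of 66 ADIPO peaks within 20% of the width of the wide peak, 7.58% held at least 4 boxes. The peaks over the shared stretch were 3384 bp wide in ADIPO, 4585 bp in GAS and 3218 bp in MT, and of peaks within 20% of that width in the same list at least 2 boxes were held by 1.43%, 2.31% and 1.23%. Boxes in Mylk outside the peaks were not counted, so a higher rate in the peaks cannot be told apart from one of the whole gene. A box is a match of letters and was not measured as a binding site.

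H3K27me3 was called at 1 or more of the 8 Mylk starts in all 7 cell types with that mark. The first start, which belongs to a retained-intron transcript, was called in mESC-ser, MT, GAS, BMDM and PIM, with peaks from percentile 7.65 in GAS to 84.5 in mESC-ser. Counting protein-coding transcripts only, H3K27me3 was called in mESC-2i, at Mylk-203 (percentile 7.49), and in GAS, at Mylk-201 (percentile 3.57). H3K4me3 was called in GAS and PIM at the first start and at no protein-coding start. mESC-2i held 16 H3K27me3 peaks over 76.5 kb of the gene, and mESC-ser 5 over 14.9 kb.

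Over the 8 genes, H3K27me3 was called at more promoters than its share over all genes, H3K27ac and H3K4me3 at fewer, and H3K18la at a share near that of all genes. H3K27me3 was called at 27 of 56 combinations of promoter and cell type (48.2%), against 21.7% over all genes. H3K18la was called at 17 of 64 (26.6%), against 31.8%. H3K27ac was called at 10 of 40 (25%), against 43.2%, and H3K4me3 at 12 of 32 (37.5%), against 58.5%. With the neighbourhood in place of the promoter H3K27me3 was called at 33 of 56 (58.9%) against 34.4% and H3K4me3 at 18 of 32 (56.2%) against 66.6%. H3K18la, at 34 of 64 (53.1%) against 46.7%, and H3K27ac, at 22 of 40 (55%) against 54.3%, lay near their backgrounds. These shares over all genes were not matched for gene length or number of starts, and Mylk alone spans 257 kb with 8 starts.

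The H3K27me3 contrast was smaller at protein-coding starts and among strong peaks. At starts of protein-coding transcripts only, H3K27me3 was called at 20 of 56 promoters (35.7%) against 20.8%. Among the 5000 strongest peaks of each list it was called at 10 of 56 (17.9%) against 12.3%, and at 0 of 56 against 4.14% once each list was cut to the called bases of the shortest list. Among the 5000 strongest peaks H3K18la lay near the background, at 6 of 64 (9.38%) against 8.37%, as it did with equal called bases, at 3 of 64 (4.69%) against 6.21%. H3K27ac and H3K4me3 stayed below the background among the 5000 strongest peaks, at 2 of 40 (5%) against 16.1% and 2 of 32 (6.25%) against 24.9%.

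**Figure D2:**
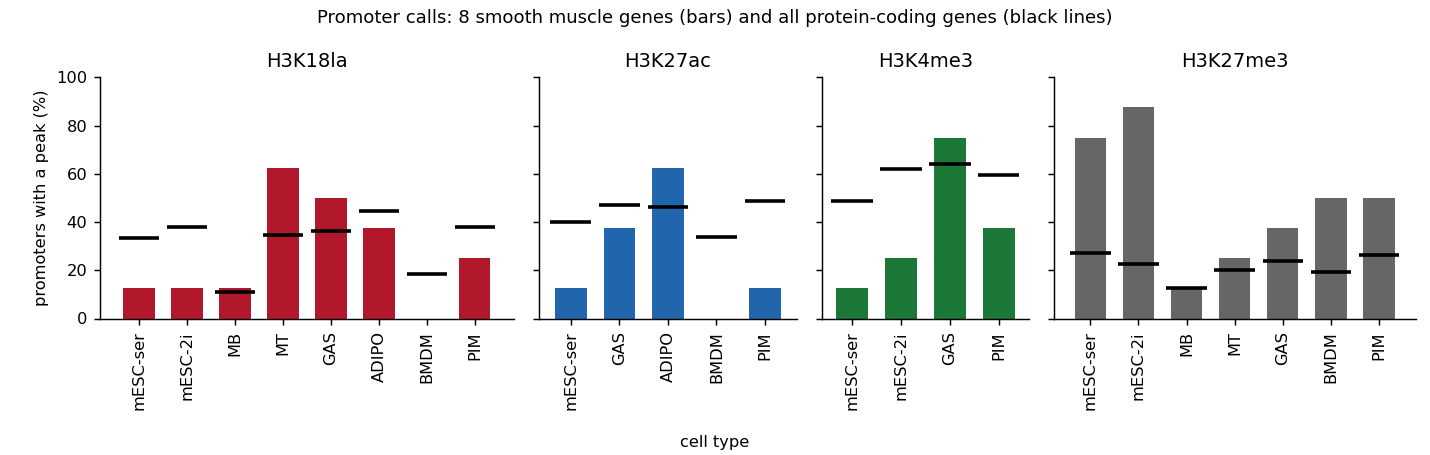
Percentage of the 8 smooth muscle promoters with a peak (bars) and of all 21728 protein-coding genes (black lines), per cell type and mark. The H3K27me3 bars of both stem cell lists reach 6 and 7 of 8 genes, far above their lines, and BMDM has no bar for H3K18la or H3K27ac.

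In the stem cells H3K27me3 was called at most of the genes. It was called at 6 of 8 promoters in mESC-ser (27.1% of all genes) and at 7 of 8 in mESC-2i (22.5%). The exceptions were Tagln in both and Lmod1 in mESC-ser, where the nearest peak began 47.0 kb downstream of the start. In mESC-ser the strongest promoter peak of each called gene was between percentile 47.0 (Acta2) and 86.5 (Cnn1). In mESC-2i the range was wider, from 2.90 (Myh11) and 13.7 (Acta2) to 84.5 (Cnn1). In mESC-ser only Acta2, Myh11, Cnn1 and Myocd were called at a protein-coding start, the Mylk and Smtn calls lying at starts of other transcripts, and in mESC-2i all of the called genes but Smtn were. H3K18la was called at Smtn alone in mESC-ser (33.4%) and in mESC-2i (37.8%). Smtn alone was also called for H3K27ac (40.2%) and H3K4me3 (48.8%) in mESC-ser, and Smtn and Myocd for H3K4me3 in mESC-2i (61.8%).

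In the muscle lineage only H3K18la and H3K27me3 were listed in MB, MT and GAS alike. H3K18la was called at Acta2 alone in MB (11.1%, near which 1 of 8 lies), at Acta2, Mylk, Tagln, Lmod1 and Smtn in MT (34.8%), and at Acta2, Mylk, Lmod1 and Smtn in GAS (36.1%). The Mylk call lay at a protein-coding start in MT but only at starts of other transcripts in GAS. In GAS, H3K27ac was called at Mylk, Tagln and Smtn (46.9%) and H3K4me3 at all but Cnn1 and Myocd (64.2%). H3K27me3 was called at Mylk in MB (12.6%), at Mylk and Cnn1 in MT (20.1%), and at Mylk, Cnn1 and Myocd in GAS (24%). MB H3K18la was 1 sample with 13551 peaks and MT 2 pooled samples with 33994, so the state of the cells and the size of the list cannot be told apart.

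In ADIPO, H3K18la was called at Myh11, Mylk and Smtn (44.7%), and H3K27ac at these and at Acta2 and Tagln (46.1%). In the macrophages, H3K18la was called at none of the 8 promoters in BMDM (18.5%) and at Acta2 and Smtn in PIM (37.8%). H3K27ac was called at none in BMDM (34%) and at Smtn in PIM (48.7%), and H3K4me3 at Acta2, Mylk and Smtn in PIM (59.4%). H3K27me3 was called at the same genes, Myh11, Mylk, Cnn1 and Lmod1, in BMDM (19.2%) and in PIM (26.5%).

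**Figure D3:**
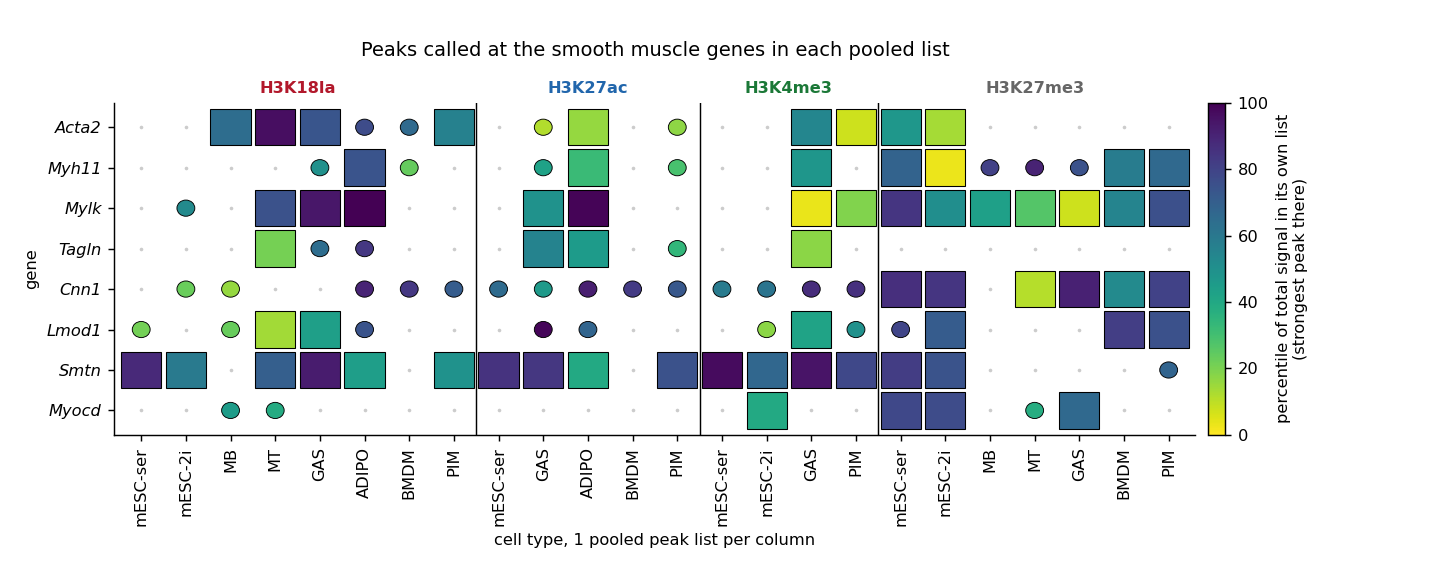
Each square is a promoter call, each circle a gene with a peak only elsewhere within 10 kb of it, and each grey dot a gene with neither, for the 8 genes (rows) in the 24 lists (columns). Colour gives the percentile of total signal of the strongest such peak in its own list, darkest for Mylk in the ADIPO H3K18la list. The Tagln row is empty for H3K27me3, and the Cnn1 row has promoter calls for H3K27me3 only.

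Acta2, the actin gene (chr19:34241090-34255590, - strand), had an H3K18la promoter peak in 4 cell types. The MT peak was 12622 bp wide, from -8.36 to 4.26 kb relative to the start, at percentile 96.3. The strongest promoter peak was at percentile 73.8 in GAS, 64.8 in MB and 56.6 in PIM. A stretch of 798 bp upstream of the gene, from -7.54 to -6.74 kb relative to the start, was called for H3K18la in MT, GAS, ADIPO, BMDM and PIM, and there the ADIPO peak was at percentile 77.1. ADIPO had an H3K27ac peak at the Acta2 promoter, at percentile 16, without an H3K18la peak. GAS had the reverse, and 0 kb of its 6.70 kb of H3K18la near Acta2 were also called for H3K27ac. H3K27me3 was called only in the stem cells, 2.42 to 4.24 kb into the gene in mESC-ser and 2.26 to 3.75 kb in mESC-2i.

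RefSeq promoters (GRCm38.p6, the 250 bases before each start) matched Mylk, Acta2, Cnn1, Lmod1 and Smtn. Tagln, Myh11 and Myocd were not matched. None of the 5 held an exact CArG box, which 1.47% of all 32851 promoters held. Acta2 alone held boxes with 1 G or C allowed among the 6 middle bases, 2 of them, and 8.59% of all promoters held at least 1. They are shown because the H3K18la promoter peaks of MB, MT, GAS and PIM cover both. They begin 84 and 34 bases before the RefSeq start, with the box in capitals and read along the gene. The RefSeq start lies inside the gene as annotated above, which begins at position 34255590, so both boxes lie downstream of that annotated start.
Acta2 84 bases before the start, chr19:34255438-34255467, - strand: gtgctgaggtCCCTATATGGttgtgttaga
Acta2 34 bases before the start, chr19:34255388-34255417, - strand: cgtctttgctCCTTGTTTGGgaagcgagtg

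Myh11, the myosin gene (chr16:14194535-14291372, - strand), had an H3K18la promoter peak only in ADIPO, from -3.81 to -0.596 kb relative to the start, at percentile 74.0. ADIPO H3K27ac was also called there, at percentile 32.2. An intronic stretch near 31 to 33 kb was called for H3K18la and H3K27ac in both GAS and ADIPO, at H3K18la percentiles 49.9 and 77.9. H3K27me3 was called at the promoter in mESC-ser, mESC-2i, BMDM and PIM. In MB, MT and GAS H3K27me3 peaks lay only in the gene body, the widest in MT with 19284 bp at percentile 90.6.

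Tagln (chr9:45929619-45936058, - strand) was the only member with no H3K27me3 peak in any of 7 lists, also within 10 kb. Its H3K18la promoter call came from MT alone, at percentile 20.8. In ADIPO the H3K18la peak at 2.85 to 4.08 kb missed the promoter window by 360 bp, while the H3K27ac peak at 2.44 to 4.09 kb overlapped it by 43 bp, so these neighbouring peaks fall on either side of the threshold. The stronger H3K18la peaks of GAS and ADIPO near Tagln lay 15.3 to 19.7 kb from its start, at the promoter of Pcsk7.

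Cnn1, the calponin gene (chr9:22099216-22109630, + strand), had no H3K18la, H3K27ac or H3K4me3 peak at its promoter in any list. H3K27me3 was called there in 6 of 7 cell types, all but MB, in stretches of 3828 to 10402 bp, with percentiles from 11 in MT to 90.8 in GAS. Active marks called within 10 kb of Cnn1 lay mostly about 17 to 22 kb from its start, at the promoter of Elof1. When peaks at promoters of other genes were left out, the H3K18la neighbourhood count over all members went from 34 to 25.

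**Figure D4:**
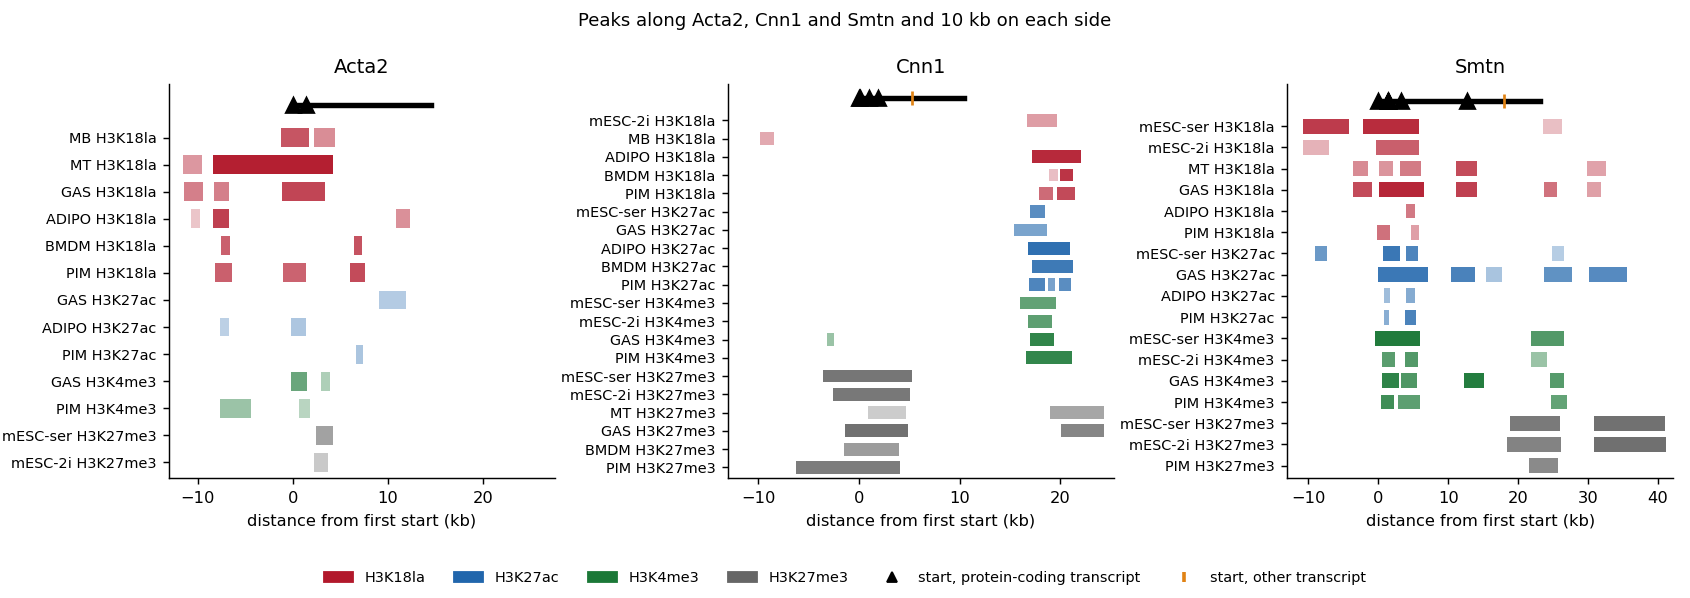
Peaks along Acta2, Cnn1 and Smtn, 1 row per list, against the distance from the first annotated start in kb. Darker bars are at a higher percentile of total signal in their own list. H3K18la covers the starts of Acta2 and Smtn in several cell types, and at Cnn1 the starts are covered by H3K27me3 alone.

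Lmod1 (chr1:135324807-135368065, + strand) had an H3K18la promoter peak in MT and GAS, at percentiles 14.0 and 43.8. A stretch of 733 bp at 43.2 to 43.9 kb from the start was called for H3K18la in mESC-ser, MB, MT, GAS and ADIPO. The gene ends 43.3 kb from the start, so most of the stretch lay past its 3′ end. There the GAS H3K27ac list had a peak of 23569 bp at percentile 98.6, which ran on over the neighbouring gene Shisa4. H3K27me3 covered the start in mESC-2i, BMDM and PIM, with the widest peak, 16683 bp, in BMDM.

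Smtn (chr11:3517523-3540612, - strand) differed from the other members in its breadth of calls. H3K18la was called at its promoter in 6 of 8 cell types, all but MB and BMDM, H3K27ac in 4 of 5 and H3K4me3 in 4 of 4. The H3K18la peak was at percentile 92.3 in GAS and 88.5 in mESC-ser, and the H3K4me3 peak of mESC-ser was at percentile 97.1. H3K27me3 was called at Smtn in both stem cell lists, at 18.4 to 26.2 kb, near the start of the processed transcript Smtn-206 and the gene Selenom, and at no protein-coding start of Smtn.

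Myocd, the myocardin gene (chr11:65176561-65269989, - strand), had no H3K18la or H3K27ac peak at its promoter in any list. H3K18la was called within the gene in MB, at 59.0 to 61.0 kb, and in MT, at 59.7 to 60.9 and 54.2 to 55.6 kb. H3K4me3 and H3K27me3 were both called at the start in mESC-2i, at percentiles 39.5 and 73.9. H3K27me3 was also called there in mESC-ser, at percentile 78.2, and in GAS, at percentile 66.3.

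Where 2 marks were listed in the same cell type, they were set against each other per promoter. H3K18la and H3K27ac were both called at 7 of 40 combinations, H3K18la alone at 3 and H3K27ac alone at 3, where the shares over all genes were 29.3%, 4.78% and 13.8%. H3K18la was called at 8 of 32 combinations in the lists that also had H3K4me3, and H3K4me3 was called at all 8 of them. For Mylk in GAS the 2 marks lay at different starts, H3K4me3 at the first and H3K18la at starts 155 to 208 kb downstream. Over all genes 33.2% of combinations had both marks and 3.08% H3K18la alone, so H3K18la without H3K4me3 was rare in general. H3K18la and H3K27me3 were both called at 4 of 56 (all genes 4.14%), and at 0 of 56 when only protein-coding starts were counted. At the level of bases, H3K18la and H3K27me3 shared none near the members in 6 of 7 cell types, whose lists as a whole shared 0.104% (MB) to 5.86% (PIM) of their H3K18la bases. In mESC-ser they shared 2.46 kb, 13.1% of the H3K18la bases, against 8.79% in the list as a whole. All of these shared bases lay past the end of Smtn, in an H3K18la peak at percentile 3.45. Both this peak and the H3K27me3 peak over it lay at the promoter of the neighbouring gene Selenom. Without flanks, the share of H3K18la bases also called for H3K27me3 over the 7 cell types went from 1.04% to 0%.

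**Figure D5:**
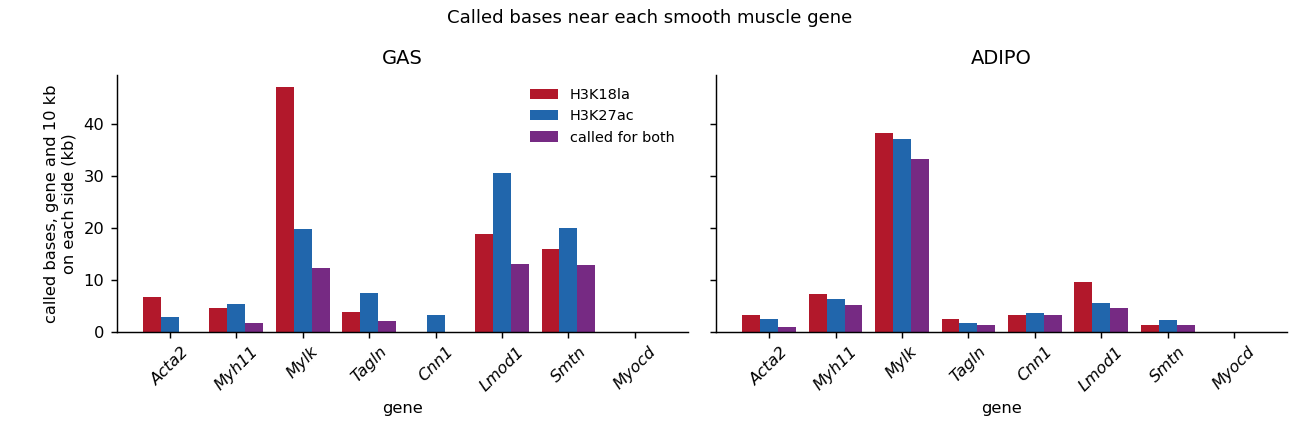
Called bases in kb within each gene and 10 kb on each side, for H3K18la (red), H3K27ac (blue) and both (purple), in GAS and ADIPO. Mylk, the longest gene, holds the most H3K18la in both, with 47.1 and 38.3 kb, and Lmod1 the most H3K27ac in GAS, with 30.6 kb. As a share of the gene with its flanks, H3K18la is highest at Smtn in GAS (36.8%, Mylk 17.0%) and at Lmod1 in ADIPO (15.1%, Mylk 13.8%).

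Near all 8 members together, 76.3% of the 65.3 kb of H3K18la in ADIPO were also called for H3K27ac, and 43.3% of the 96.7 kb in GAS. Mylk held 38.3 kb of the ADIPO sum and 47.1 kb of the GAS sum. At Smtn in GAS the shared part was 80.4% of the H3K18la bases and at Lmod1 68.8%, so the low share at Mylk did not hold for every gene of the tissue.

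Other genes of the same pathway were called for H3K18la more often than the members. Of 9 regulators of smooth muscle genes, the promoter was called in 42 of 72 combinations (58.3%, against 31.8% of all genes), with Klf4, Mrtfa and Srf called in at least 6 of 8 cell types. Mrtfa and Srf encode a myocardin-related co-activator and serum response factor. Prrx1 and Tgfb1i1 were called in no stem cell or macrophage list. Of 20 other contractile and adhesion genes, 55% of combinations were called for H3K18la, and 9 genes, among them Actn1, Cald1, Csrp1, Flna, Myl6 and Pdlim7, were called in at least 6 cell types. Des, Fhl2, Nexn and Synpo2 were called in muscle or adipocyte lists only. Actg2, Itga8, Kcnmb1 and Pln, named after their values were seen, were called for H3K18la in no list. The first 3 of them were called for H3K27me3 in 5, 6 and 4 cell types and Pln in none. Over all 20 genes H3K27me3 was called in 43 of 140 combinations (30.7%), against 21.7% of all genes. Of the 17 paralogues of the members, 55.1% of combinations were called, with the broadly used cytoskeletal genes Actb, Actg1, Cnn2, Myh9 and Tagln2 in at least 6 cell types. Another 7, among them Acta1, Actc1, Lmod2, Lmod3, Mylk3 and Mylk4, genes of striated muscle, were called in none of the stem cell and macrophage lists.

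The 14 contractile genes of striated muscle, a set of like specialisation, were called for H3K18la in 41 of 112 combinations (36.6%, against 31.8% of all genes) and for H3K27me3 in 38.8%, against 21.7% of all genes. In MT 12 of 14 and in GAS 11 of 14 were called for H3K18la, against 5 and 4 of the 8 smooth muscle genes, where 34.8% and 36.1% of all genes were called. In ADIPO 3 of 14 were called, against 3 of 8, and 44.7% of all genes.

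Across the 24 lists, the percentile of the strongest peak near each gene was compared with that of Mylk by Pearson's r. The r is given as a description, since several lists come from the same cell type or mark and the lists differ in peak number. Grip2 was most like Mylk (r = 0.901), followed by Npffr1 (0.890), Prelp (0.881), Optc (0.881) and Tinagl1 (0.876). Prelp and Optc are neighbours and share peaks. Most like the mean of the members were Kbtbd13 (0.912), Ubap1l (0.911), Mpdz (0.891), Colca2 (0.887) and Rasl12 (0.874), of which Kbtbd13, Ubap1l and Rasl12 lie side by side. Among the 28 pairs of members r ran from -0.28 to 0.756 with a median of 0.138.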

How the data were processed

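The deposited peak lists came from CUT&Tag of 41 samples. According to the submitters' processing notes and the study's methods, reads were trimmed (Trim Galore 0.6.6), aligned to mm10 (Bowtie2 2.4.4) and converted to fragment coverage (bedtools 2.30), the coverage of replicates was merged, and peaks were called with SEACR 1.3. The authors' signal values are the total and the maximum coverage of each peak, not scaled for depth. Reads per sample were not analysed here, and a missing peak does not show absence of a mark.

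Peaks on chromosomes 1 to 19 and X were joined to GENCODE M21 genes with Python 3.11.15, numpy 2.4.6 and pandas 2.3.3. Promoters, neighbourhoods and percentiles were defined as given above, and the overlap functions were tested on simulated peaks against bedtools 2.31.1. Each cell type has 1 pooled list per mark, hence no replicate error and no test. Stem cell lists named without a medium were taken as mESC-ser, as the sample descriptions pair them.

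The members and gene lists were chosen with earlier results of these data known. Named were the 8 members, from each other list up to 6 genes called for H3K18la in at least 6 cell types or in muscle and adipocytes but not in stem cells or macrophages, and the 5 most alike genes per profile. Cell type markers, and 4 contractile genes without an H3K18la call, were named outside this rule after their values were seen. CArG boxes were sought in the mm10 chromosomes (RefSeq GRCm38) and in RefSeq promoters. Widths of promoter and flank, overlap, peak number and called bases were varied.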

Additional observations from a re-analysis of the deposited data

How the results depend on the processing

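Of 65 alternative values for 13 results, 39 stayed within 1.5 times the count given above or, for shares of bases, within 1 SD over cell types. Any other rank of the Mylk peak counted as a change. Taking the 5000 strongest peaks of each list lowered the promoter counts to 6 (H3K18la), 2 (H3K27ac), 2 (H3K4me3) and 10 (H3K27me3), or 9.38%, 5.0%, 6.25% and 17.9% of combinations against 8.37%, 16.1%, 24.9% and 12.3% of all genes, the neighbourhood counts to 10, 5, 6 and 15 in the same order, or 15.6%, 12.5%, 18.8% and 26.8% against 15.5%, 23.0%, 31.8% and 18.1%, and the promoters with both H3K18la and H3K27ac to 2 and with both H3K18la and H3K27me3 to 1. Cutting each list to the called bases of the shortest one (22.6 Mb) lowered the promoter counts to 3, 3, 2 and 0, or 4.69%, 7.5%, 6.25% and 0% against 6.21%, 22.4%, 27.6% and 4.14% of all genes, the neighbourhood counts to 6, 10, 6 and 0, or 9.38%, 25.0%, 18.8% and 0% against 11.7%, 29.8%, 34.9% and 5.93%, and the promoters with both marks to 1 and 0, and raised the share of H3K18la bases also called for H3K27ac from 53.2% to 75%. Both settings keep fewer peaks by construction. With starts of protein-coding transcripts only, promoters with both H3K18la and H3K27me3 went from 4 to 0. Without peaks at other genes' promoters, the H3K27ac neighbourhood count went from 22 to 14. The widest Mylk peak moved from rank 30 to 151 by maximum signal, 261 by signal per base and 39 by width.

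No paired analysis was possible because replicates were pooled before peak calling, and for the same reason leaving out replicates was not run. Reads per sample were not analysed, and a missing call does not show that a mark is absent.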
